A study of Sus scrofa and Bos taurus with 31 samples.

Results

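Slow muscle fibre genes encode the contractile and calcium-handling proteins of slow-twitch muscle, and 8 of them, MYH7, MYH7B, TNNI1, TNNT1, TNNC1, MYL2, MYL3 and ATP2A2, were followed here across pig tissues. They were taken by symbol from the RefSeq annotation of Sscrofa11.1, and all 8 were found among 20674 protein-coding genes. Each gene was examined with 10 kb on either side, a stretch called its window below.

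The study used the Assay for Transposase-Accessible Chromatin (ATAC-seq), in which a transposase cuts open DNA, on nuclei of 8 tissues from 2 pigs, named P348 and P350. By the study's methods these were castrated male Yorkshire littermates of 6 months, so the 2 replicates of a tissue share a litter and a sex, and no genotype or treatment separates any groups. Skeletal muscle was set against liver, lung, spleen, adipose and 3 brain regions (cerebral cortex, cerebellum and hypothalamus), with 2 libraries per tissue and 16 in all. The name of the muscle is not given in the sources used here, and its mix of slow and fast fibres is therefore not known.

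Skeletal muscle is built of slow fibres, which contract slowly, resist fatigue and burn fuel with oxygen, and of fast fibres, which use other members of the same protein families. In a sarcomere, myosin heavy and light chains form the thick filament, the troponin complex on the thin filament senses calcium, and a calcium pump returns calcium to the sarcoplasmic reticulum so that the fibre can relax. Several slow fibre genes, among them MYH7, MYL2, MYL3, TNNC1 and ATP2A2, also serve the heart, which was not among the tissues.

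Peak lists, 1 per library, held 99960 to 217308 peaks covering 64.14 to 155.6 Mb. The skeletal muscle lists held 125828 and 99960 peaks over 98.5 and 72.65 Mb, and the cerebellum lists, the longest, 217308 and 207917 peaks. The study's own read numbers show more filtered reads for the skeletal muscle libraries than for any other pig library, and the part of depth in the results was not tested. The lists give no read counts, so no interval for counting error is given. A peak in bulk tissue is a sum over nuclei, and more nuclei of a type cannot be told apart from more open chromatin per nucleus. The muscle label was checked against ACTA1, CKM, MYOG, MYF6 and DES. All 5 were higher in muscle by the test described next, which called 26.0% of all genes higher. Their summed peak bases were 407 and 482 per Mb in muscle against 63.8 to 184 in the other libraries.

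All 8 slow fibre genes carried more peak bases in skeletal muscle than in the other 7 tissues. The measure was the number of bases of a window under peaks per Mb of all peak bases of the library, and it was compared on the log2(value + 1) scale in limma, as muscle minus the mean of the other tissues. Every member passed at an adjusted p under 0.05 (Benjamini-Hochberg over 19638 genes). Muscle also led over all genes, of which 26.0% were higher and 13.9% lower, and the median gene differed by 0.40. The members' differences ran from 1.12 to 3.30 with a median of 1.82. Both muscle libraries lay above all 14 others for all 8 members, which held for 17.9% of all genes. With each library centred at its median gene, an alternative chosen after seeing the data, 2506 genes were higher and 3922 lower, and 6 of the 8 members remained higher, all but TNNI1 and TNNC1. The call rests on both muscle animals. Without muscle P348 the members' median difference was 1.93 and that of all genes 0.45. Without muscle P350 they were 1.73 and 0.36. In either case fewer members passed, and fewer of all genes, with the lone library assumed to vary like the other tissues.

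**Figure D1:**
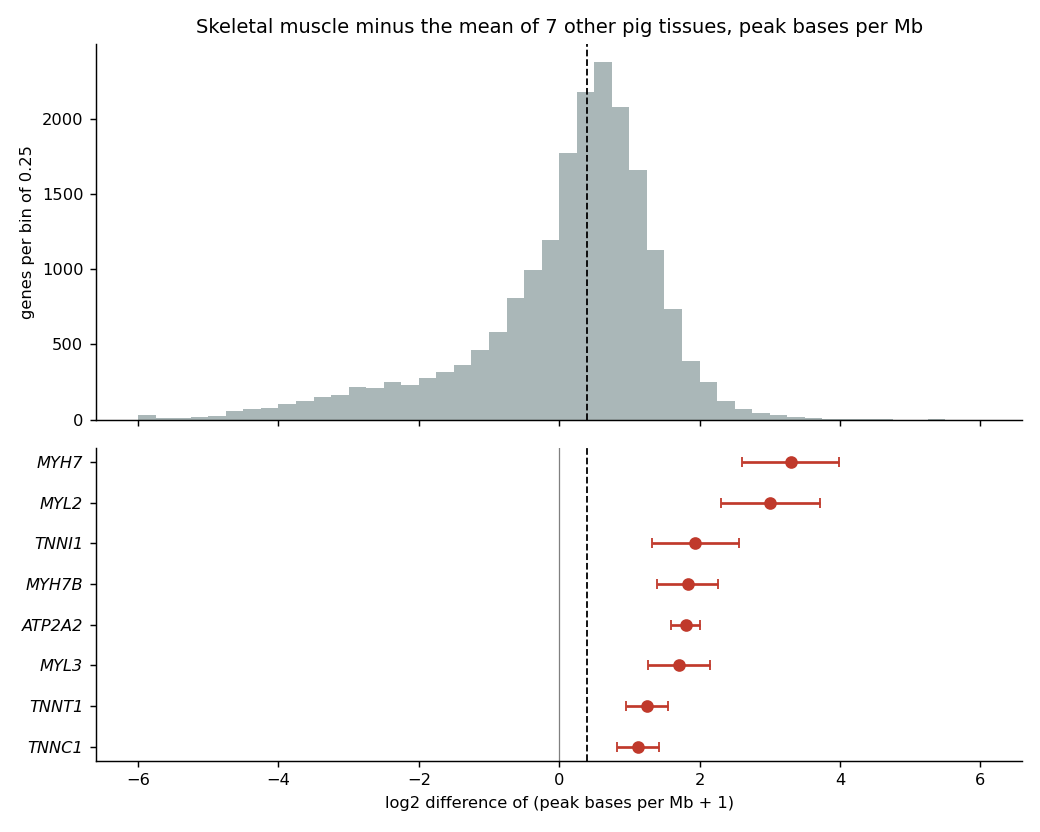
The upper panel counts all 19638 genes tested by their log2 difference in peak bases per Mb, skeletal muscle minus the mean of 7 tissues, in bins of 0.25 (23 genes beyond 6 on either side stand in the end bins), and the lower panel gives the 8 slow fibre genes with bars of 1 standard error. All 8 points lie to the right of the dashed line, the median gene at 0.40.

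Summed over the 8 windows, the muscle libraries held 570 and 671 peak bases per Mb, and the other 14 held 56.7 (cerebellum P348) to 290 (adipose P350). The number of peaks followed the same split, with 62 and 53 in muscle and 12 to 40 elsewhere. Below muscle the order of the tissues varied from gene to gene. Adipose came next for MYH7, TNNC1, MYL2 and MYL3, liver for MYH7B, lung for TNNI1, spleen for TNNT1 and cerebral cortex for ATP2A2. In each case the means of the next tissue and the one after it differed by less than the larger of their SDs, so these places are not separated. Cerebellum, with the longest lists, was lowest for 6 members and stood at 0 together with hypothalamus for MYL2, while liver was lowest for MYH7.

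**Figure D2:**
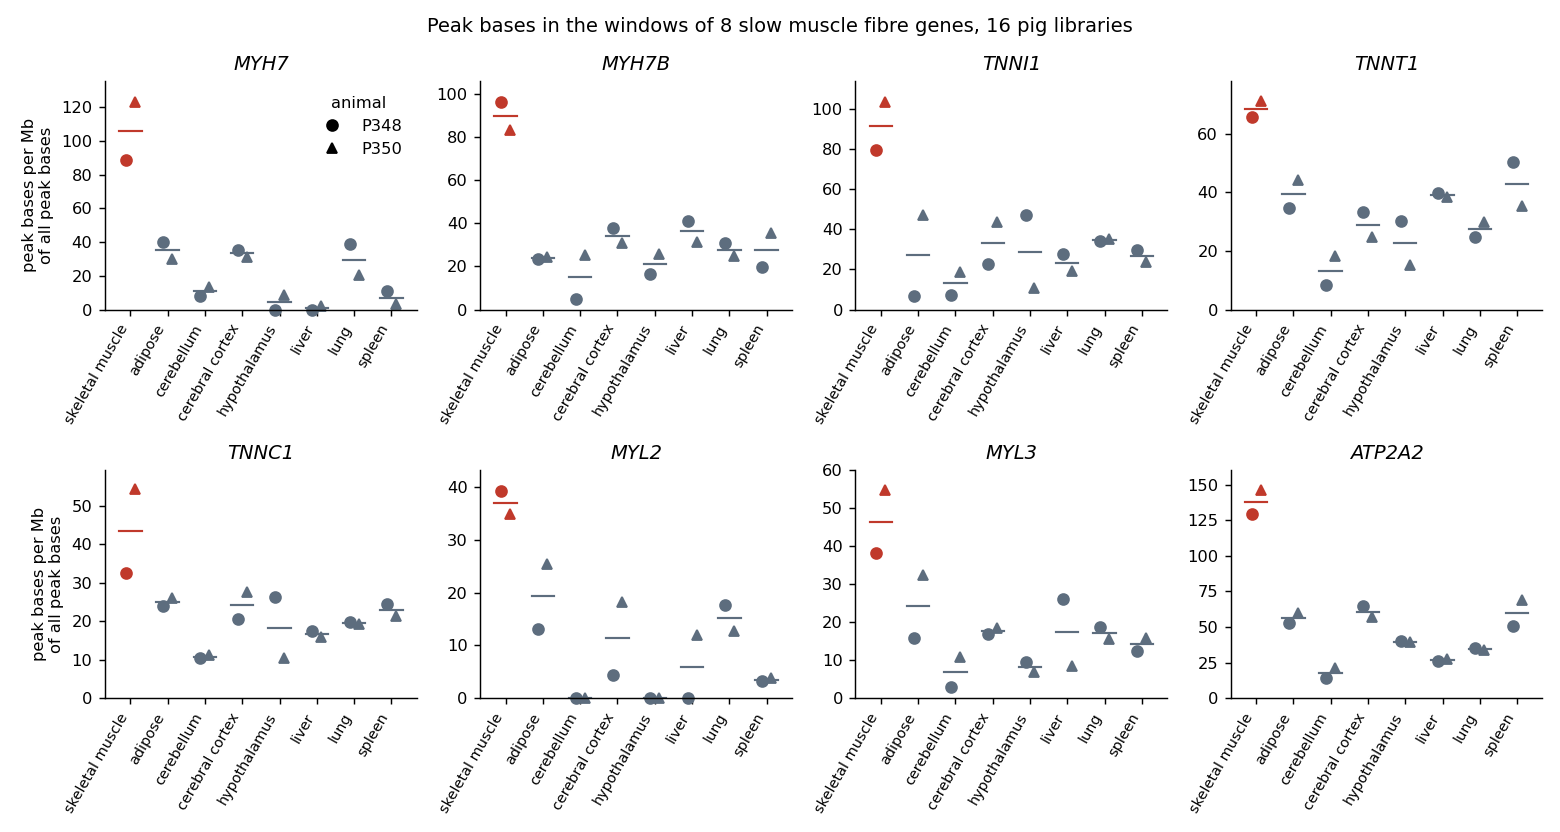
Peak bases per Mb of all peak bases (vertical axis, from 0) in the window of each gene, by tissue, with a circle for animal P348, a triangle for P350 and a line at the tissue mean. In every panel both muscle points, in red, lie above the 14 others, and the lower muscle point is 1.17 (MYL3) to 2.21 (MYH7) times the highest other.

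MYH7 encodes the slow, or beta, myosin heavy chain, the motor that defines slow fibres. The gene lies at chr7:75650841-75672908 on the plus strand. Its window held 88.6 peak bases per Mb in muscle P348 and 123 in P350 (106 ± 24.2, SD, n = 2), and in the other libraries a lowest of 0, a median of 12.1 and a highest of 40.1, in adipose P348. The groups did not overlap, and muscle P348 alone was 2.21 times the highest other library. The log2 difference was 3.30 (SE 0.69, limma adjusted p = 0.00382). Hypothalamus P348 and liver P348 had no peak in the window, so the size of this difference depends on the value added before the log, and with 0.1 in place of 1 it no longer passed.

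The region of the MYH7 window with the highest fold in muscle was upstream of the gene. At chr7:75641102-75641546, centred 9517 bp before the 5′ end, peaks had folds over background of 6.73 and 6.61 in the muscle libraries, and no other library had a peak there. A further muscle-only region at chr7:75647747-75648611, 2662 bp upstream, had folds of 3.59 and 3.70. The other 7 regions open in both muscle libraries were shared with at least 1 other library. One over an exon at chr7:75655233-75656759, picked out after its values were seen, reached a fold of 8.68 in cerebral cortex P350 against 2.46 and 2.65 in muscle, and the cortex and muscle peaks within it did not overlap each other. Shown here are the 300 bases at the centre of the upstream muscle-only region (chr7:75641167-75641466, plus strand), because this region separated muscle from all other libraries most sharply, with capitals for matches to the muscle motifs described below, an E-box and a MEF2 motif.

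MYH7 upstream region: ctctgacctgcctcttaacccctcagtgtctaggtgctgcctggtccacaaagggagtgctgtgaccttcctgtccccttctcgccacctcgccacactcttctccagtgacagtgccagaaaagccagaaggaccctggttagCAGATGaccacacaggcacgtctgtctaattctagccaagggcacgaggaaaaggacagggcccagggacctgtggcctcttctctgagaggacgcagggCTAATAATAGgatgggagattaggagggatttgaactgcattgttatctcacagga

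MYH7B, at chr17:38362158-38385680 on the plus strand, encodes a related slow myosin heavy chain whose transcript hosts a muscle microRNA. Peak bases were 96.5 and 83.3 per Mb in muscle (89.9 ± 9.35, SD, n = 2), and 4.92, 25.5 and 41.2 as the lowest, median and highest of the others. Both muscle values were at least 2.02 times any other library. The log2 difference was 1.83 (SE 0.43, limma adjusted p = 0.00679). Its most strongly enriched region in muscle, named after its values were seen, was again upstream, at chr17:38351965-38353127 with folds of 8.57 and 9.07 in muscle. There 5 other libraries also had a peak, the highest with a fold of 3.27 in cerebellum P350. The single muscle-only region of the window, chr17:38385185-38387044 at the 3′ end of the gene, was weak, with folds of 1.84 and 1.69, and the peaks of the 2 animals there shared only the stretch from 38386841 to 38386857.

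MYH7 and MYH7B carry the microRNAs miR-208b and miR-499 inside their transcripts, and their mature sequences are shown because the pair is processed from the same transcripts that the windows follow. The sequences were read from the genome (DNA letters) at the RefSeq positions chr7:75667830-75667851 and chr17:38374132-38374152, both on the plus strand, with the seed, bases 2 to 8, in capitals.

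ssc-miR-208b: aTAAGACGaacaaaaggtttgt

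ssc-miR-499-5p: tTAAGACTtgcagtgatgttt

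The miR-208b position lay under peaks of both muscle libraries, with folds of 2.07 and 2.67, and of 2 others, adipose P348 and lung P348. The miR-499-5p position lay under a peak in 1 library that was not from muscle, and in neither muscle library.

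The light chains sit on the neck of the myosin head. MYL2 encodes the slow and ventricular regulatory light chain and lies at chr14:32205953-32213848 on the minus strand. Its peak bases were 39.3 and 34.8 per Mb in muscle (37.0 ± 3.13, SD, n = 2), against 0, 4.08 and 25.5 as the lowest, median and highest of the others. No peak at all was found in 5 of the 14 other libraries, so that here too the log2 difference of 3.01 (SE 0.70, limma adjusted p = 0.00681) depends on the value added. MYL2 no longer passed against the tissues outside the brain alone or with 50 kb flanks. No region of the MYL2 window was muscle-only. The start site was the strongest, with folds of 5.33 and 5.59 in muscle and 2.84 or less in the 5 other libraries with a peak there.

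MYL3, the slow and ventricular essential light chain, lies at chr13:29730271-29735616 on the minus strand. It had 38.1 and 54.6 peak bases per Mb in muscle (46.3 ± 11.7, SD, n = 2) and 2.98, 15.6 and 32.5 as the lowest, median and highest elsewhere. The groups did not overlap, but muscle P348 was only 1.17 times adipose P350. The log2 difference was 1.71 (SE 0.44, limma adjusted p = 0.0109), and it did not pass at a q-value limit of 0.0001. A region of 2542 bp over its start site, chr13:29733511-29736052, was called in muscle alone, with folds of 3.74 and 3.96. The promoter of MYL3 (chr13:29735587-29735886), from 270 bases before the start to the first 30 transcribed, is shown in the direction of transcription because its peak was found only in muscle, with motif matches in capitals.

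MYL3 promoter: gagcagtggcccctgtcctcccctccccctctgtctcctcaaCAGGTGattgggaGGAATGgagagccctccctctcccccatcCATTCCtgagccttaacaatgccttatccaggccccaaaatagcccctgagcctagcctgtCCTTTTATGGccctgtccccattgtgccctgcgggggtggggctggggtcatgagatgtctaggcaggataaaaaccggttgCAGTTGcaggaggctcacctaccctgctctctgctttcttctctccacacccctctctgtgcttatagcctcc

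**Figure D3:**
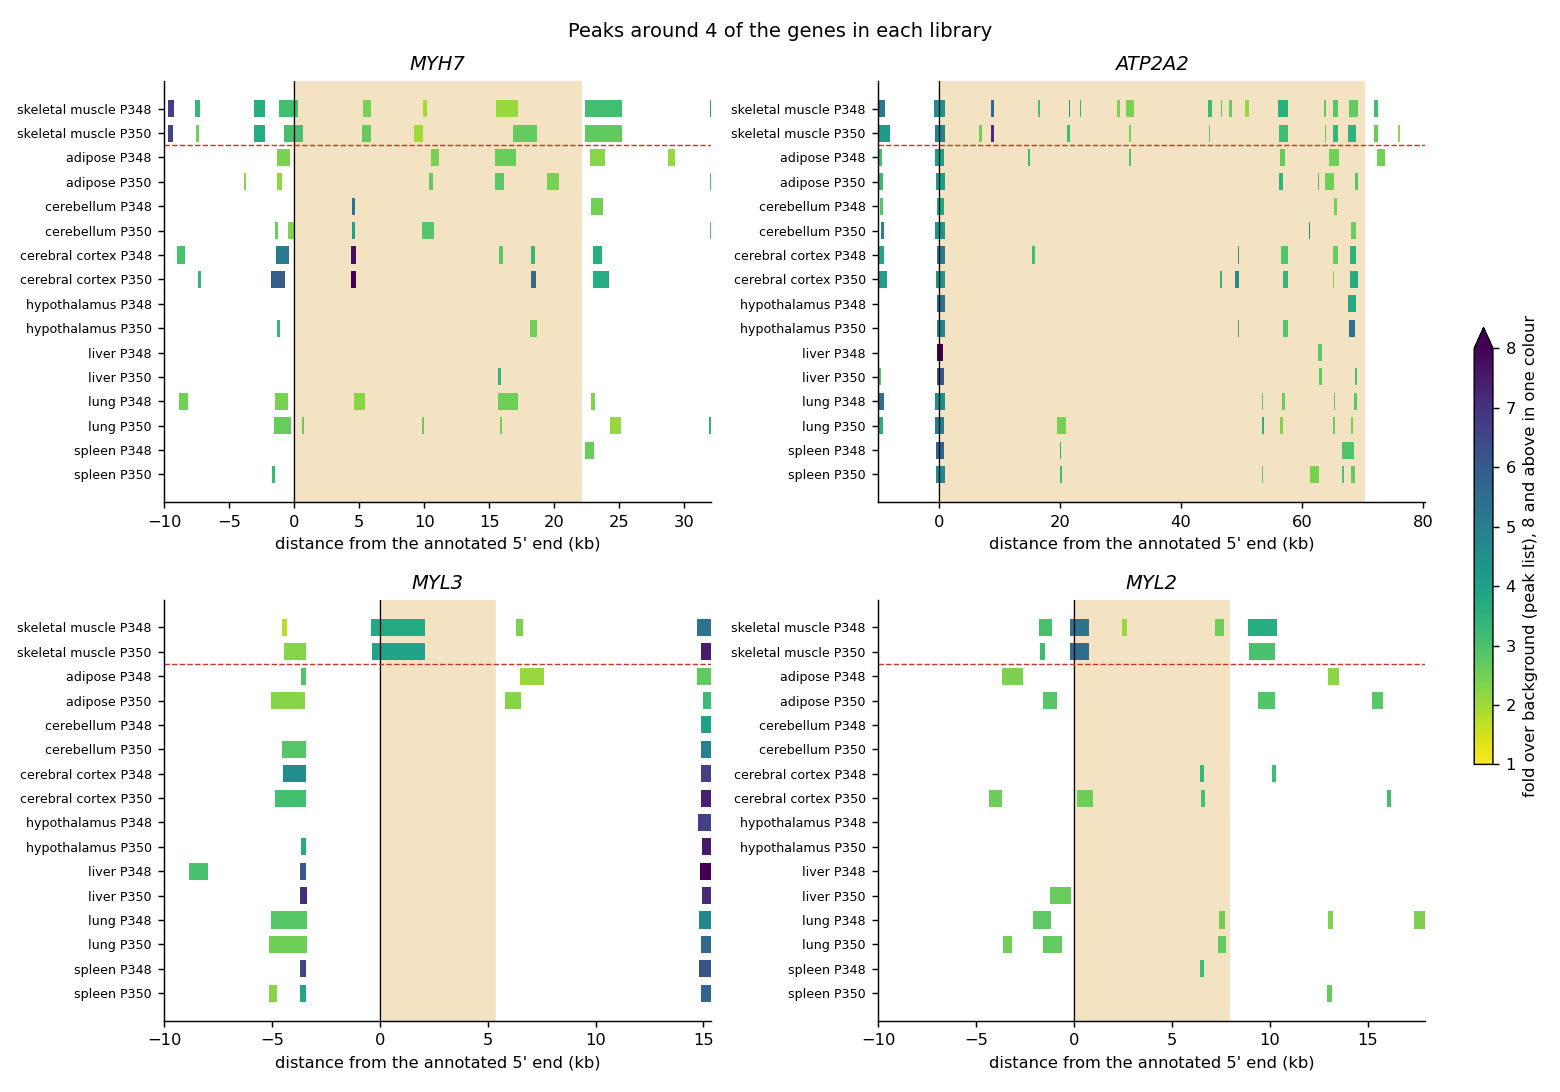
Peaks in the windows of MYH7, ATP2A2, MYL3 and MYL2 in each of the 16 libraries, placed by distance from the annotated 5′ end in the direction of transcription (kb), with the gene shaded and colour giving the fold over background. The 2 muscle rows, above the dashed line, show the upstream MYH7 region, the many peaks inside ATP2A2 and the MYL3 start site peak, which is in no other row.

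Of the slow troponins, TNNI1 encodes the inhibitory subunit, at chr10:23788279-23800554 on the minus strand. Peak bases per Mb were 79.6 and 104 in muscle (91.7 ± 17.1, SD, n = 2) and 6.94, 25.7 and 47.1 as the lowest, median and highest of the others. Muscle was again clear of all others. The log2 difference was 1.94 (SE 0.62, limma adjusted p = 0.0289), the highest p of the 8. With 2 kb flanks the difference was larger, at 2.70, but missed the threshold (limma adjusted p = 0.0789), as did 2.82 in the gene alone (limma adjusted p = 0.0577). Its only muscle-only region lay between TNNI1 and the next gene, LAD1, with folds of 2.1 and 2.27.

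TNNT1, the subunit that ties the complex to tropomyosin, lies at chr6:59351445-59365584 on the minus strand. Muscle had 65.6 and 71.1 peak bases per Mb (68.4 ± 3.9, SD, n = 2) and the others 8.49, 31.8 and 50.5 as the lowest, median and highest. The 2 muscle values were close together and above the rest, with spleen P348 nearest. The log2 difference was 1.25 (SE 0.30, limma adjusted p = 0.00854), which was lost at a q-value limit of 0.0001. The window held 3 muscle-only regions: one over the 5′ end (chr6:59364055-59365979, folds 3.52 and 3.21), one in an intron (chr6:59356588-59356852, folds 3.02 and 2.76) and one downstream (chr6:59343442-59344032, folds 1.91 and 1.77).

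TNNC1, the calcium-binding subunit shared by slow fibres and heart, is the shortest of the 8 genes, at chr13:34591571-34594320 on the minus strand. It had 32.5 and 54.4 peak bases per Mb in muscle (43.4 ± 15.5, SD, n = 2) and 10.4, 20.3 and 27.6 as the lowest, median and highest elsewhere. The log2 difference was 1.12 (SE 0.30, limma adjusted p = 0.0126), the smallest of the 8. At a q-value limit of 0.01 it was 0.59 (limma adjusted p = 0.168), and at 0.0001 it was 1.99 (limma adjusted p = 0.0107). In the gene alone only the muscle libraries had a peak. TNNC1 reached that test through them and had to differ, so its value of 4.04 there is described and not counted. A muscle-only region just downstream of the gene had folds of 2.60 and 3.05. The TNNT1 promoter (chr6:59365555-59365854) follows as a muscle-only stretch of a troponin gene, over the same bases relative to the start, in the direction of the gene and with the motif match in capitals.

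TNNT1 promoter: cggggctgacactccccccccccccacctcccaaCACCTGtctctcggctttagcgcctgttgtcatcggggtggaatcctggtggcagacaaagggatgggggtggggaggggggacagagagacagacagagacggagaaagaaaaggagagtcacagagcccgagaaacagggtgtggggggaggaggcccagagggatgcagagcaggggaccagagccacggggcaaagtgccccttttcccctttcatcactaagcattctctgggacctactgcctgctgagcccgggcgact

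ATP2A2 encodes SERCA2, the calcium pump of the slow and cardiac sarcoplasmic reticulum, which most cell types also use in the endoplasmic reticulum. It lies at chr14:31674659-31744981 on the plus strand. Peak bases were 129.6 and 146 per Mb in muscle (138 ± 11.8, SD, n = 2), and 14.3, 39.7 and 69.1 as the lowest, median and highest of the others. Its window held 17 and 13 peaks in muscle and 2 to 7 in the other libraries. The log2 difference of 1.80 had the smallest error of the 8 (SE 0.21, limma adjusted p = 0.000107), and ATP2A2 passed under every alternative but one, the peaks with a q-value under 0.0001. In the gene alone the difference was 1.77. Regions open in both muscle libraries also lay in the flanks, each shared with at least 1 other library. Inside the gene 3 regions were muscle-only. The strongest, in an intron at chr14:31683264-31683859 and 8902 bp past the 5′ end, had folds of 5.62 and 7.11. The others were intronic at chr14:31695823-31696384 (folds 4.28 and 3.17) and over an exon at chr14:31719208-31719765 (folds 3.24 and 2.79). The central 300 bases of the strongest (chr14:31683405-31683704, plus strand) are shown for the same reason as those of MYH7.

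ATP2A2 intronic region: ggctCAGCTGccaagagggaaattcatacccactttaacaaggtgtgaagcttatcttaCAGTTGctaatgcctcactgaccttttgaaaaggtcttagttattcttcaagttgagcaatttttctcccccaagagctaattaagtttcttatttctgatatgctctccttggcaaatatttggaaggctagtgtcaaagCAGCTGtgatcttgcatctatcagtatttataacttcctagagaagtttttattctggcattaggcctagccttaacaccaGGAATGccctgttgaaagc

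Start sites told the members apart more than whole windows did. A peak within 2 kb of an annotated start site was present in both muscle libraries for all 8 members, as for 70.2% of coding genes. Counting all annotated start sites of a gene, MYL3 was the only member with a peak at any of them in both muscle libraries and in no other, which held for 0.241% of the genes with such a peak in both. TNNT1, for which the annotation gives 11 start sites, had a start site peak in 3 of the 14 other libraries, MYL2 in 5, TNNI1 in 7, MYH7 in 9, and MYH7B, TNNC1 and ATP2A2 in all 14.

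The fold of the start site peak, a mean over the peak, was compared in the same model. It entered as the log2 of the highest fold, with 1 in place of no peak. Over 18218 genes, 17.8% were higher and 8.09% lower in muscle, with a median gene at 0.13. Of the members, 2 were higher (MYL2 and TNNT1), 1 was lower (MYH7B) and 4 did not pass. MYL3, the other member, reached the test only through its 2 muscle peaks and so had to differ, and it is described and not counted. MYL2 differed by 1.94 (SE 0.42, limma adjusted p = 0.00991) and TNNT1 by 1.44 (SE 0.43, limma adjusted p = 0.0363). The TNNT1 groups overlapped, with folds of 3.52 and 3.21 in muscle and 3.37 in liver P350. TNNT1 no longer passed against the tissues outside the brain alone or with no filter on low values. The MYL3 folds were 3.74 and 3.96 in muscle, with no peak listed in the 14 others. With either muscle library left out, none of the 7 members still tested was higher, and MYL3 fell below the filter.

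MYH7B ran the other way. Its start site folds were 3.04 and 3.88 in muscle, and 3.07 in adipose P348 to 12.5 in liver P348 among the other libraries, all of which had a peak. The difference was -0.96 (SE 0.19, limma adjusted p = 0.00659), with overlap between muscle and adipose. Each fold is a mean over its peak, and the peaks differed in width. The muscle P348 peak ran from -317 to 2896 bp from the 5′ end, and the liver P348 peak from 2004 to 2561 bp. The part of peak width in this difference was not tested. The annotation gives MYH7B 6 start sites, and at the 5′ end alone the difference was 0.43 (limma adjusted p = 0.693). TNNI1 missed the threshold at 1.1 (SE 0.39, limma adjusted p = 0.061), although its folds of 3.03 and 3.58 in muscle were above the highest other, 2.71. The MYH7 start site had folds of 3.10 and 3.05 in muscle and 5.93 in cerebral cortex P350, with a difference of 0.56 (SE 0.48, limma adjusted p = 0.395). For ATP2A2 the difference was -0.07 (SE 0.12, limma adjusted p = 0.667). TNNC1 differed by -0.24 (SE 0.11, limma adjusted p = 0.144), but its 2 kb reach takes in the start of NISCH, a gene on the other strand. Within 500 bp of its own start, adipose P348 was the only library outside muscle with a peak. TNNC1 reached that test only through its muscle peaks, so its difference of 1.70 there is described and not counted.

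**Figure D4:**
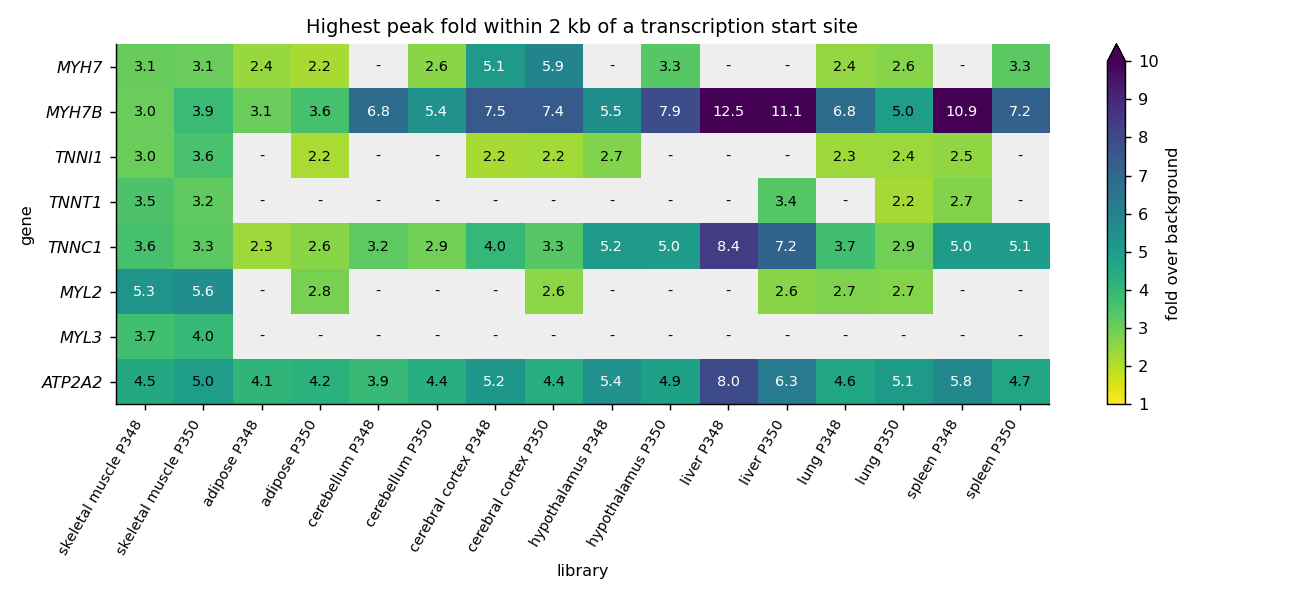
Highest fold over background of any peak within 2 kb of an annotated transcription start site, for the 8 genes (rows) in the 16 libraries (columns), with a dash and grey where no peak was listed. MYL3 is filled in the 2 muscle columns alone, and MYH7B, TNNC1 and ATP2A2 are filled in every column with their highest values in liver.

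Merging the 16 lists gave 533944 regions, of which 86150 held a peak in both muscle libraries. Of those, 10667 (12.4%) held no peak in any other library and are called muscle-only. In the windows of the slow fibre genes the counts were 45 and 12, or 26.7%. The 12 were spread over 7 members, with 3 each at TNNT1 and ATP2A2, 2 at MYH7, 1 each at MYH7B, TNNI1, TNNC1 and MYL3, and none at MYL2. The term says only that no peak was called elsewhere. The count was 7 (30.4%) in the gene bodies without flanks and 16 (16.7%) with 50 kb flanks, both beside 12.4% of all regions. It was 8 (18.6%, beside 10.8%) when peaks closer than 500 bp were joined. It was 21 (35%, beside 15.4%) when a peak in either muscle library was enough.

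Muscle-related motifs were searched on both strands in 300-base windows, 7 at the strongest muscle-only region of each member with one and 8 at the promoters. E-boxes (CANNTG), bound by myogenic factors such as MYOD, were in 6 of the 7 regions and 7 of the 8 promoters, and in 87.5% of all muscle-only regions and 68.8% of all promoters. The MCAT element (CATTCC), bound by TEAD factors, was in 3 of the 7 regions, those of TNNT1 and ATP2A2 among them, and 2 of the 8 promoters, MYL3 and TNNC1. Its shares were 17.6% of muscle-only regions and 12.2% of promoters. The MEF2 motif was found in the MYH7 upstream region, as in 12.6% of muscle-only regions, and in none of the members' promoters, against 3.13% of all. The CArG box, bound by SRF, was found in the MYL3 promoter and in 1.5% of all, at position -125 from the start. An ERR half-site (TNAAGGTCA) was in the MYH7B promoter and in 0.977% of all, and MEF3 (TCAGGTT) was in no member window, against 8.55% of muscle-only regions and 4.06% of promoters. No matches of different motifs overlapped in the members' windows. A match describes these letters, not a bound site.

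The neighbours of the members share parts of their windows. A gene whose product RefSeq names myosin-6, the cardiac alpha heavy chain, overlaps the MYH7 window, and TNNI3, the cardiac inhibitory troponin, that of TNNT1. The other protein-coding neighbours are TRPC4AP at MYH7B, LAD1 at TNNI1, PPP1R12C at TNNT1, SEMA3G and NISCH at TNNC1, CCDC63 at MYL2 and ANAPC7 at ATP2A2, and non-coding RNA genes lie in the windows of MYH7, MYH7B, TNNI1, MYL3 and ATP2A2. Their peaks count toward the members' bases. With the gene bodies alone 7 of the 8 members were higher, beside 19.3% of all genes, with a median difference over the 8 of 2.90. The member that did not pass was TNNI1, at 2.82 (limma adjusted p = 0.0577). In the bodies of TNNC1 and MYL3 only the muscle libraries had a peak. Both reached that test through those peaks and had to differ (4.04 and 4.69), which also raises the median.

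Fast fibre counterparts of the same families were higher as well, 9 of 9, beside 26.0% of all genes. Their median difference was 3.45. MYH1, a fast heavy chain, had 77.4 and 149 peak bases per Mb in muscle and 11.05 or less elsewhere (6.16, SE 0.51, limma adjusted p = 1.03e-05). MYL1, a fast essential light chain, differed by 3.66 (SE 0.70, limma adjusted p = 0.00238), and ATP2A1, the fast fibre calcium pump, by 3.03 (SE 0.64, limma adjusted p = 0.00408). The difference between the fast and slow lists was not tested. Of 8 further slow or oxidative fibre genes tested, 7 were higher and none lower, with a median of 2.45. Over all genes, 26.0% were higher and 13.9% lower. MYBPC1, the slow myosin-binding protein, led at 3.55 (SE 0.36, limma adjusted p = 4.26e-05), with 324 and 354 peak bases per Mb in muscle and 53.0 or less elsewhere. PLN, which restrains the SERCA2 pump, had a start site peak in muscle alone (folds 3.08 and 3.43). So had the fast genes MYH1 (6.90 and 5.05) and MYLPF (3.20 and 3.23). CASQ2, the slow and cardiac calcium store protein, did not pass (0.30, limma adjusted p = 0.376).

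Among 14 regulators of the slow programme, 11 were higher and none lower, with a median of 1.54, beside 26.0% and 13.9% of all genes. TEAD1 (2.02, SE 0.21, limma adjusted p = 5.07e-05), MEF2C (1.93, SE 0.25, limma adjusted p = 0.000245) and PPP3CB, a catalytic subunit of calcineurin (2.72, SE 0.23, limma adjusted p = 1.12e-05), were among them. PPARGC1A, the coactivator of oxidative metabolism, did not pass at 0.15 (SE 0.25, limma adjusted p = 0.635), nor did PROX1 at 0.55 (SE 0.26, limma adjusted p = 0.11) and MEF2A at 2.73 (SE 1.16, limma adjusted p = 0.0798), whose muscle libraries were both above all others. SOX6, a repressor of slow fibre genes, was higher too (1.60, SE 0.26, limma adjusted p = 0.000968), though cerebellum P348 reached 488 peak bases per Mb against 403 and 358 in muscle.

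Markers of other cell types were read the same way, beside the 26.0% of all genes that were higher and the 13.9% that were lower. Of 5 heart markers tested, TNNI3, TNNT2 and NPPA were higher, with list sums of 176 and 190 peak bases per Mb in muscle against 16.4 to 172 elsewhere. TNNI3 overlaps the TNNT1 window, so it is not separate from the members. MYH6 was listed too but is not in the annotation under that symbol. Smooth muscle markers gave none higher and 1 lower of 5 (213 and 214 in muscle, 58.6 to 372 elsewhere), endothelial markers none and 3 (201 and 141, against 165 to 323), and neuronal markers none and 3 (207 and 196, against 139 to 676). Adipocyte markers gave 1 higher, LPL, and 1 lower, ADIPOQ (189 and 145, against 35.0 to 181), and immune markers 2 higher, CD79B and CSF1R, and 1 lower, PTPRC (177 and 171, against 38.6 to 464). A start site peak in both muscle libraries was present for 70.2% of all coding genes. Beside that share, it was found for 5 of 5 smooth muscle, 4 of 5 heart, 3 of 5 endothelial and 3 of 5 neuronal markers. For adipocyte markers it was 2 of 5, and for immune markers 1 of 5. TEK, ADIPOQ, PLIN1, PTPRC, CD3E and RBFOX3 had none in either muscle library. The part of these cells in the members' values was not tested.

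Over the 16 libraries the members' log2 values varied together, with a Pearson r between pairs from 0.257 to 0.851 (median 0.688, 28 pairs), and from -0.0957 to 0.747 (median 0.53) over the 14 libraries without muscle. The points share libraries, so these are descriptions. The genes outside the windows with values most like the members' mean were PDPR (r = 0.942), MYLK2 (0.937), which encodes skeletal muscle myosin light chain kinase, MYO18B (0.935), an unconventional myosin of muscle, DAPK3 (0.934) and CPEB4 (0.931). The closest to single members were DSPP to MYH7 (0.875), PHKB to MYH7B (0.932), SH2D2A to TNNI1 (0.90), RASA4B to TNNT1 (0.966), TTC7B to TNNC1 (0.936), CCDC81 to MYL2 (0.902), OGDH to MYL3 (0.958) and UBE2R2 to ATP2A2 (0.958).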

How the data were processed

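The 16 pig ATAC-seq peak lists were analysed, and the cattle lists were not used here. Per the study's methods, the authors called broad peaks with MACS2 at a q-value limit of 0.05 on Sscrofa11.1. Trimming (Trim Galore 0.4.5), alignment (BWA 0.7.17), mapping quality filtering (SAMtools 1.10) and duplicate removal (Picard 2.18.17) are described for ChIP-seq, and a shift of ATAC-seq read ends is not given in the sources used here. Each deposited list belongs to 1 library. The deposited fold gives a peak's mean signal as a ratio to the background around it, and the deposited −log10 q-value, also a mean over the peak, served only to filter. That mean q-value was over 0.05 for 1.54% and 3.73% of the muscle peaks, the lowest shares, and for up to 16.3% (cerebellum P348). A deeper library can give more and weaker peaks.

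Peaks were assigned to RefSeq genes with 10 kb flanks. Genes with a peak in at least 2 libraries were compared by limma 3.58.1 (R 4.3.3) on 8 tissue means, checked on simulated data. Named regions were, for each member, the muscle-only region with the highest fold in the weaker muscle library. Genes most alike were those with the highest Pearson r outside the members' windows. The members and all lists were chosen with earlier results of these data known. Samples of a tissue come from different animals and those of one animal are paired across tissues. Differences between the 2 animals correlated between tissues at -0.165 to 0.124 (median 0.0104, 28 tissue pairs, across genes). Alternatives changed the q-value limit, flank, scale, pseudocount, filter, tissues and libraries. Some sequences are not reported here.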

Additional observations from a re-analysis of the deposited data

How the results depend on the processing

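With 2 animals per tissue, each left-out library leaves 1 in its tissue, and the spread is then taken from the others. With the animal as a replicate block, 8 members were higher by peak bases with a median difference of 1.82 and 3 by start site fold, MYL3 included, and the block changed no member's call. The members' median difference was 1.72 with peaks at q under 0.01, 1.74 at q under 0.0001, 1.88 with lists of equal length, 2.43 with a 2 kb flank, 1.17 with 50 kb, 2.90 with none, 1.13 for peak numbers per 100000 peaks, 1.64 undivided by the library total, 1.85 and 1.52 with pseudocounts of 0.1 and 10, 1.66 without brain tissues, 1.39 with centred libraries (added later) and 1.72 to 1.93 with a library left out. Without flanks, only the muscle libraries had a peak at TNNC1 and MYL3, so both had to differ there. At q under 0.0001, 5 members were higher and 5 above all other libraries, beside 9.67% and 6.32% of all genes. Leaving out a library gave 1 to 8 higher members by peak bases and 0 to 4 by start site fold, where the 0 came without either muscle library and over the 7 members tested, without MYL3. Against 3 by start site fold, MYL3 included, 5 were higher within 500 bp and 5 at q under 0.0001. Beside these stood 17.8% of all genes within 500 bp and 21.1% at q under 0.0001. Both counts of 5 include MYL3, and the count within 500 bp also includes TNNC1. These genes reached those tests only through their muscle peaks. Signs turned for MYH7B at the 5′ end alone (0.43), for TNNC1 within 500 bp (1.70) and at q under 0.0001 (0.18), and for ATP2A2 at q under 0.0001 (0.07), none of them called higher or lower by start site fold at first except MYH7B. Muscle-only regions in the members' windows numbered 21 with either muscle library, or 35% of those open in muscle, against 15.4% over all regions. At q under 0.0001 they numbered 20 (55.6% against 36.1%), and with peaks joined 8 (18.6% against 10.8%). Without flanks there were 7 (30.4%) and with 50 kb flanks 16 (16.7%), both against 12.4%. With a library left out there were 12 to 20, with 20 without muscle P350 (33.9% against 14.3%). Over all genes, 5113 were higher and 2734 lower by peak bases, against 2386 and 1900 at q under 0.01, 1773 and 2624 at q under 0.0001, 3134 and 2268 with equal lists, 3324 and 2693 undivided, 2506 and 3922 centred, 2584 and 2044 without muscle P348 and 1160 and 1216 without P350. By start site fold, 3238 were higher and 1474 lower, against 3291 and 950 at q under 0.0001, 1356 and 690 without muscle P348 and 432 and 310 without P350. By peak bases the higher share of called genes was 65.2%, and 39.0% when centred. The cause of these moves was not tested.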
